A study of Mus musculus with 44 samples.

Results

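The comparison described here sets dendritic cells (DCs) of tumour-bearing *Bmal1*ΔcDC mice against those of sham-injected control mice in the dark phase. It uses 12 of the 44 RNA-sequencing libraries of the series, 6 labelled KO with B16-F10-OVA and 6 labelled WT with PBS, chosen by their labels and not by any measured value. In each arm 3 mice had been injected at ZT15 and 3 at ZT21 (Zeitgeber time, hours after lights on), and each library came from 1 mouse. The sorted population was CD45+CD11c+MHCII high cells of the draining inguinal lymph node, taken 24 h after the injection.

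KO mice were homozygous for a floxed *Bmal1* (*Arntl*) and heterozygous for *Clec9a-cre*, which is active in conventional DCs and their precursors, and they received B16-F10-OVA cells, a mouse melanoma line that expresses ovalbumin. The sham mice had the control genotype and received PBS. The mice were females of 8 to 12 weeks, and all cells came through the same sort. The study's methods name C57BL/6N mice as purchased and give no background for the floxed and Cre lines. No sham-injected KO mice are among the samples used here, so genotype and tumour cells change together between these arms and cannot be told apart by this comparison alone. The 10 dark-phase libraries of control mice with tumour cells are therefore given beside it. By their labels they differ from sham in the tumour cells and from KO tumour in the genotype. The study names 2 independent experiments that the labels used here do not give. A difference between experiments can therefore not be told apart from either. In bulk samples, fewer cells of a type and less RNA per cell cannot be told apart.

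BMAL1 pairs with CLOCK to drive the transcription of clock genes, among them *Per1*, *Per2* and *Nr1d1*, whose products feed back on the pair or on its expression, and the output gene *Dbp*. Conventional DCs take up antigen, and the mature migratory cells, marked by high MHC class II, *Ccr7* and *Fscn1*, carry it to the lymph node, where CD80 and CD86 give T cells the second signal of their activation. Type 1 conventional DCs (cDC1), marked by *Clec9a* and *Xcr1*, present antigen of dead cells to CD8+ T cells.

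The libraries held 29406729 to 46028918 reads on genes for KO tumour and 30611830 to 49590055 for sham, and values are given as CPM, a gene's reads scaled to the total of its library. *Ptprc* (CD45) was at 396 ± 66.4 CPM in KO tumour and 329 ± 33.5 CPM in sham (mean ± SD, n = 6 each), *Itgax* (CD11c) at 53.9 ± 16.1 and 54.3 ± 8.64 CPM, and *H2-Ab1* (MHC class II) at 2586 ± 1178 and 2976 ± 396 CPM, so the genes of the sort gate were present in both arms. T cell genes were present too, with *Cd3e* at 74.6 to 133 CPM in KO tumour and 77.1 to 200.5 CPM in sham. Correlated over genes with each of the other 11, the first KO tumour library at ZT21 stood apart, with a median r of 0.92 against 0.94 to 0.96 for the other libraries. Melanoma genes summed to 2.03 to 22.1 CPM in KO tumour and 2.78 to 5.59 CPM in sham.

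The targeted gene did not separate the arms. *Arntl* (chr7:113178471-113314126; all coordinates are those of GRCm38.p6) was at 13.9, 19.6 and 37.99 CPM in KO tumour (lowest, median and highest of 6 libraries) and 12.3, 21.4 and 34.8 CPM in sham, a log2 difference of 0.06 (SE 0.26; limma, adjusted p = 0.90). The values are summed over the whole gene and do not show whether the floxed exons were removed. The libraries are therefore named by their labels throughout, and every difference is that of libraries labelled KO tumour minus libraries labelled sham. *Clec9a* (chr6:129408862-129424764), whose regulatory sequence drives the Cre and whose product is the receptor that marks cDC1, fell from 1.38, 4.30 and 7.40 CPM in sham to 0, 0.582 and 1.68 CPM in KO tumour, with ranges that overlapped, a log2 difference of -1.95 (SE 0.29; limma, adjusted p = 0.014).

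Of 11963 genes tested, 251 differed between KO tumour and sham in the dark phase at an adjusted p under 0.05 (limma on log2(CPM + 0.5) with the timepoint as a covariate, Benjamini-Hochberg over all genes tested), which is 2.10% of them. The count was 33 without the third KO tumour library at ZT15, 1006 without the third at ZT21, and between these without each of the other 10. Of the 251, 202 (1.69%) were higher in KO tumour and 49 (0.410%) lower, and 94 (0.786%) differed at least 2-fold, 76 higher and 18 lower. Without adjustment 3146 genes (26.3%) had a p under 0.05 and 60.5% of all genes lay above 0. All fold changes are on the log2(CPM + 0.5) scale, which understates the change of low genes. The split of higher and lower calls moved with the scaling: the median log2 difference of all genes tested was 0.11, and with median-of-ratios scaling, which brought it to -0.00, 86 genes were higher and 90 lower. In 358 genes (2.99%) every KO tumour library was above every sham library, and in 122 (1.02%) every one was below.

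Among the largest differences were those of neighbouring *Trim* genes on chromosome 7, which encode tripartite-motif proteins, a family with members induced by interferon that restrict viruses. *Trim12a* (chr7:104299893-104315558) was at 16.9, 24.6 and 37.3 CPM in sham and at 0.0587, 0.104 and 1.43 CPM in KO tumour, and *Trim30d* (chr7:104470014-104507853) at 19.3, 25.2 and 30.3 and 0, 0.802 and 3.72 CPM. In neither gene did the ranges overlap. The log2 difference was -5.02 (SE 0.30; limma, adjusted p = 1.4e-05) for *Trim12a* and -4.29 (SE 0.39; limma, adjusted p = 4.2e-04) for *Trim30d*. *Trim34a* (chr7:104244448-104262244) fell from 31.1, 53.9 and 64.3 to 11.7, 13.9 and 20.98 CPM, a log2 difference of -1.73 (SE 0.21; limma, adjusted p = 0.0043). Its near copy *Trim34b* (chr7:104329471-104336617) went the other way. *Trim34b* was listed at 0 in 4 of the 6 sham libraries and at 0.925 CPM in the highest of them, and at 6.597, 9.19 and 14.7 CPM in KO tumour, a log2 difference of 3.99 (SE 0.23; limma, adjusted p = 1.4e-05).

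These genes have near-identical copies, and their values hold fractions of a read in all (*Trim12a*), 83.3% (*Trim30d*), and 66.7% (*Trim34a* and *Trim34b*) of the 12 libraries, so the level of a single copy is uncertain. Sums over copies, chosen after the values were seen, were lower in KO tumour in each of the 3 families. *Trim34a* and *Trim34b* together were at 24.8 ± 6.08 CPM in KO tumour and 51.5 ± 13.4 CPM in sham (n = 6 each). *Trim12a* and *Trim12c* together were at 42.1 ± 6.34 and 67.8 ± 10.4 CPM, with *Trim12c* itself at 41.7 ± 6.44 and 41.9 ± 5.55 CPM, a log2 difference of -0.01. *Trim30a*, *Trim30b* and *Trim30d* together were at 39.8 ± 7.83 and 85.7 ± 13.7 CPM. The sums of *Trim34a* and *Trim34b* overlapped, with a highest KO tumour sum of 35.6 CPM and a lowest sham sum of 31.3 CPM, while those of the *Trim12* and *Trim30* families did not.

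The promoters of the 4 genes that moved are shown because members side by side on the chromosome moved in opposite directions. Each runs from 250 bases before to 50 bases after the RefSeq start site (GRCm38.p6), 5′ to 3′ on the gene's strand, and capitals mark the first match to the interferon-stimulated response element GAAANNGAAA on either strand.
Trim12a, minus strand, chr7:104315446-104315745: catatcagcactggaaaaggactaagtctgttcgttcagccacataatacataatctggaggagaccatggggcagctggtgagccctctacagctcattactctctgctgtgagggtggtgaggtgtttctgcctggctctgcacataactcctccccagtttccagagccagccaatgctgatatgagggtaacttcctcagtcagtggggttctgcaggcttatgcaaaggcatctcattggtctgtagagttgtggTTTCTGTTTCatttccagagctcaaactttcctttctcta
Trim30d, minus strand, chr7:104507800-104508099: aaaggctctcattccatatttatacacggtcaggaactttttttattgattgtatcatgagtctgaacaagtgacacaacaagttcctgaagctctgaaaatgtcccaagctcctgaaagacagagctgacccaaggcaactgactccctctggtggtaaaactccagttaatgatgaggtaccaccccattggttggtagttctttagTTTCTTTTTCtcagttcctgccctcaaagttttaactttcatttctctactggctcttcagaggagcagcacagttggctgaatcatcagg
Trim34a, plus strand, chr7:104244207-104244506: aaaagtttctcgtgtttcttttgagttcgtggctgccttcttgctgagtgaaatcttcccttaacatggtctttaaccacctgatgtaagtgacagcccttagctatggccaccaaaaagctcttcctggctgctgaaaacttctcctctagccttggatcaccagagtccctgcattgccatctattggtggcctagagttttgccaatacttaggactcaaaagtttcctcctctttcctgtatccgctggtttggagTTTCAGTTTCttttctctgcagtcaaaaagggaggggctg
Trim34b, plus strand, chr7:104329221-104329520: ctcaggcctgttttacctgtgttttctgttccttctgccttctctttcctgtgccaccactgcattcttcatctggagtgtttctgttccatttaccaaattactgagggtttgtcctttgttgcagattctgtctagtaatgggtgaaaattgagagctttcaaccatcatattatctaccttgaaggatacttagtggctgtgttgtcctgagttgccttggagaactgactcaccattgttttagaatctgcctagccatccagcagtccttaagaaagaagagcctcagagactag

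The 3 *Trim* genes that fell held the element, at 10 bases after the start site in *Trim12a* and *Trim34a* and from position -41 in *Trim30d*, and *Trim34b*, which rose, held no match in this window. The element was found in 3.99% of all 27025 promoters of the same length, in 61.5% of the 39 promoters of an interferon-stimulated gene list, in 13.9% of 36 promoters of genes called lower and in 1.80% of 167 promoters of genes called higher. Of the 5 promoters of genes called lower that held it, 3 are those of *Trim12a*, *Trim30d* and *Trim34a* shown above. The E-box CACGTG, the sequence that BMAL1 and CLOCK bind, which reads the same on both strands and does not contain the other motif, was in none of the 4 promoters. It was found in 8.09% of all promoters, 11.5% of those of genes tested, 13.2% of those called higher and 5.56% of those called lower. These are matches of letters in fixed windows and show no binding.

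**Figure D1:**
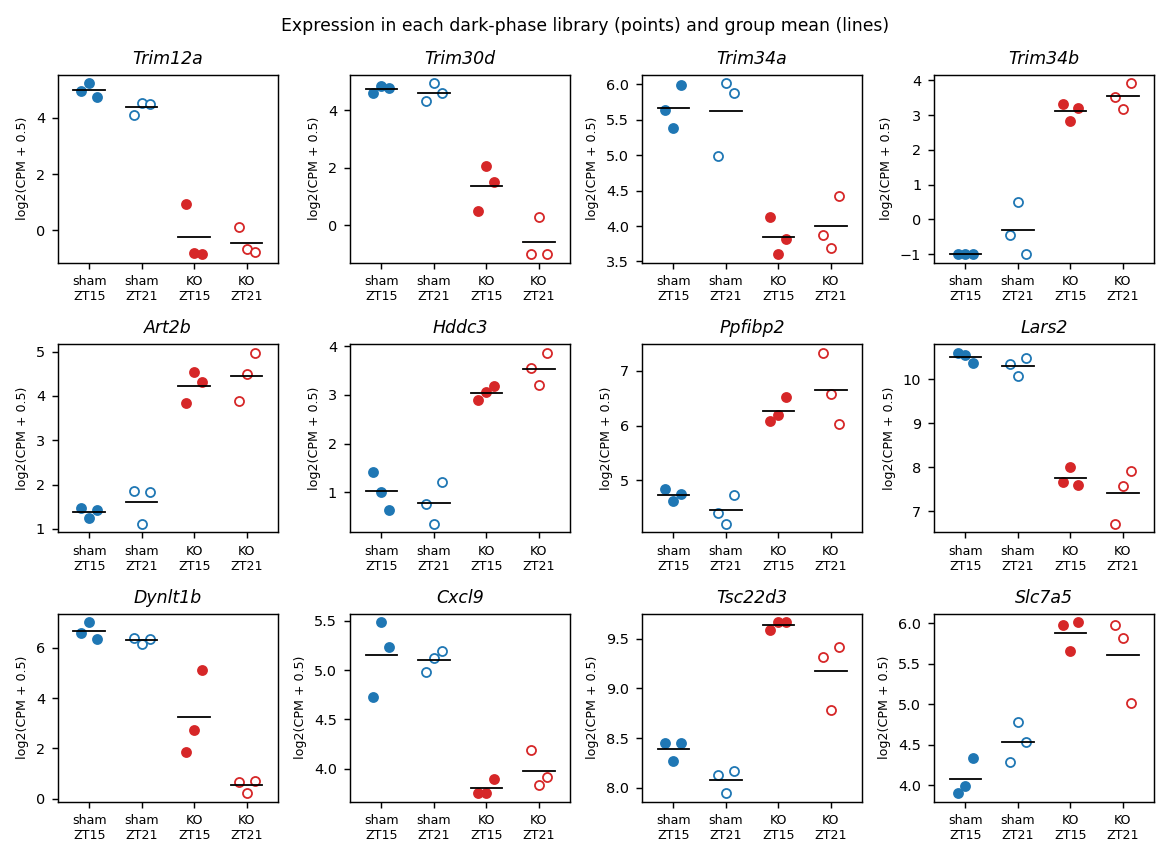
Log2(CPM + 0.5) of 12 genes in each dark-phase library, with sham in blue and KO tumour in red, ZT15 as filled and ZT21 as open points, and lines at the means of 3 libraries. The vertical scale differs between panels. In each of the 12 genes the ranges of the arms do not overlap, and *Dynlt1b* in KO tumour ranges from 0.672 to 34.0 CPM.

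Other genes of chromosome 7 rose. *Art2b* (chr7:101575729-101585591), which encodes an ADP-ribosyltransferase of the cell surface, was at 1.67, 2.23 and 3.14 CPM in sham and 13.9, 20.7 and 31.03 CPM in KO tumour, a log2 difference of 2.85 (SE 0.21; limma, adjusted p = 5.7e-05), with fractions of a read in 91.7% of the libraries. *Hddc3* (chr7:80343075-80346716), which encodes a phosphohydrolase, rose from 0.786, 1.35 and 2.16 to 6.95, 8.62 and 14.1 CPM, a log2 difference of 2.39 (SE 0.21; limma, adjusted p = 3.9e-04). *Ppfibp2* (chr7:107595047-107748583), which encodes the scaffold protein liprin-β2, rose from 18.0003, 25.2 and 28.2 to 64.5, 81.6 and 160.4 CPM, a log2 difference of 1.86 (SE 0.22; limma, adjusted p = 0.0041). None of the 3 genes overlapped between the arms. *Arap1* (chr7:101347921-101412586) and *Pde2a* (chr7:101421691-101512829), which were singled out because they were called under every alternative, were higher by 1.07 (SE 0.14) and 1.22 (SE 0.18) on the log2 scale. *Crtc3* (chr7:80586627-80688948), a coactivator of CREB, fell by 1.22 on the log2 scale (SE 0.22; limma, adjusted p = 0.026) and was called in 7 of the 12 fits that left out 1 library.

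Chromosome 7, which carries *Arntl*, held 38 of the 251 calls, or 15.1% of them, against 7.84% of the genes tested. The share of its 938 tested genes that were called was 4.05%, and the next highest share, that of chromosomes 8 and 18, was 2.65%. Of the 10 largest differences among called genes, 5 were on chromosome 7. Within it, 11 of 75 genes tested between 100 and 110 Mb were called, 10 of them at least 2-fold, and 6 of 44 between 80 and 90 Mb. Within 10 Mb of *Arntl*, 97 genes were tested, 5 were called higher and 4 lower, and their median log2 difference was 0.06, against 0.11 for all genes tested. With median-of-ratios scaling 2 of these were higher and 6 lower with a median of -0.05, and with the length and GC trend removed 2 and 5, also with -0.05. Within 10 Mb of *Clec9a* on chromosome 6, 1 of 148 was called higher and 1 lower, and 1 and 3 with median-of-ratios scaling. Over all 11963 genes tested, 1.69% were called higher and 0.410% lower. With median-of-ratios scaling 86 of all genes were higher and 90 lower, and with the length and GC trend removed 40 and 50.

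**Figure D2:**
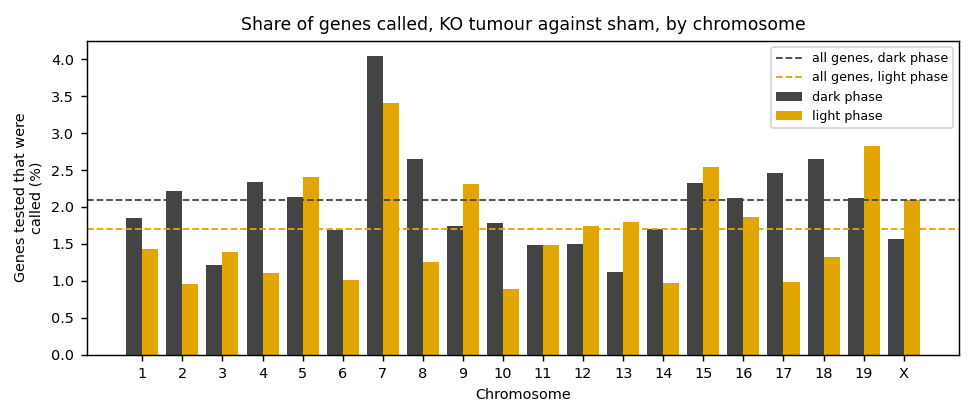
Percent of the genes tested on each chromosome that were called between KO tumour and sham, in the dark phase (dark bars) and in the light phase (yellow bars), with dashed lines at 2.10% and 1.70% for all genes. Chromosome 7 has the tallest bar in both phases, 4.05% and 3.41%.

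Set beside the control mice with tumour cells (22 dark-phase libraries in 1 fit), the chromosome 7 genes stood apart in KO tumour and not in control tumour. *Trim12a* was at 17.4, 25.5 and 29.5 CPM in control tumour (lowest, median and highest of 10 libraries), within the range of sham, with a log2 difference of -0.04 (SE 0.23) for control tumour minus sham and -4.98 (SE 0.23; limma, adjusted p = 4.2e-12) for KO tumour minus control tumour. The same 2 differences were 0.06 and -4.35 for *Trim30d*, 0.04 and -1.77 for *Trim34a*, and -0.10 and 4.09 for *Trim34b*. They were -0.04 and 2.89 for *Art2b*, 0.10 and 2.29 for *Hddc3*, and -0.17 and 2.03 for *Ppfibp2*. In all 7 genes the first difference missed the threshold (limma, adjusted p from 0.59 to 0.94) and the second passed it. Both differences use the control tumour libraries, so they are not independent of each other.

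Outside chromosome 7, the largest falls were those of *Dynlt1b* and *Lars2*. *Lars2* (chr9:123366927-123462675), the leucyl-tRNA synthetase of mitochondria, was at 1074, 1376 and 1558 CPM in sham and 105, 197 and 254 CPM in KO tumour, a log2 difference of -2.83 (SE 0.19; limma, adjusted p = 2.9e-05). In control tumour it was higher than in sham, at 1930.0, 2839 and 3708 CPM, with differences of 1.01 (SE 0.14) for control tumour minus sham and -3.84 (SE 0.14) for KO tumour minus control tumour. *Dynlt1b* (chr17:6429530-6440500), a light chain of the dynein motor, fell from 69.9, 81.8 and 128 to 0.672, 2.15 and 34.05 CPM, a log2 difference of -4.58 (SE 0.55; limma, adjusted p = 0.0041). One KO tumour library at ZT15, at 34.0 CPM, lay far above the other 5, which did not exceed 6.21 CPM. *Dynlt1b* holds fractions of a read in every library, and the sum of its 4 family members was 64.7 ± 19.4 CPM in KO tumour and 162.7 ± 37.5 CPM in sham.

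*Tsc22d3* and *Slc7a5* rose. *Tsc22d3* (chrX:140539528-140600522), which encodes the glucocorticoid-induced leucine zipper, a protein that restrains DC activation, was at 246, 299 and 348 CPM in sham and 440.3, 726 and 812 CPM in KO tumour, a log2 difference of 1.17 (SE 0.13; limma, adjusted p = 0.0019). It was -0.04 for control tumour minus sham and 1.21 for KO tumour minus control tumour. Of the 16 glucocorticoid targets tested it was the only one called, where 1.69% of all genes were called higher, and their median log2 difference was 0.00, or -0.11 with median-of-ratios scaling. *Fkbp5* and *Sesn1* of that list differed by 0.67 and 0.50 without passing the test. Of the 16 targets 8 lay above 0 and 8 below, and the lowest difference was -0.98. *Slc7a5* (chr8:121881146-121907686), the LAT1 carrier of large neutral amino acids, singled out because it was called under every alternative, rose from 14.5, 19.4 and 27.02 to 31.7, 59.2 and 64.1 CPM, a log2 difference of 1.43 (SE 0.21; limma, adjusted p = 0.013), with 0.19 for control tumour minus sham and 1.24 for KO tumour minus control tumour. No KO tumour library overlapped a sham library in either gene.

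Another group of genes fell in KO tumour, and control tumour also lay below sham. *Cxcl9* (chr5:92321331-92328079), the interferon-induced chemokine that draws CXCR3+ T cells, was at 26.04, 35.3 and 44.3 CPM in sham and 12.999, 14.1 and 17.8 CPM in KO tumour, without overlap, a log2 difference of -1.23 (SE 0.14; limma, adjusted p = 0.0030). Control tumour minus sham was -1.12 (SE 0.19; limma, adjusted p = 3.5e-04) and KO tumour minus control tumour -0.11 (limma, adjusted p = 0.69). *Hpgd* (chr8:56294552-56321046), which inactivates prostaglandins, fell from 16.2, 32.4 and 39.2 to 6.78, 11.9 and 19.3 CPM (log2 difference -1.27, SE 0.28; limma, adjusted p = 0.046). *Klk1*, the tissue kallikrein, and *Prg3*, a protein of eosinophil granules, fell by 1.41 (SE 0.31) and 1.23 (SE 0.25) on the log2 scale. *Klk1* belongs to a family of close copies and holds fractions of a read in 75.0% of the libraries. *Apoe*, the apolipoprotein E of macrophages and other lipid-handling cells, fell from 633, 839 and 1088 to 399.9, 447 and 560.1 CPM (log2 difference -0.83, SE 0.15; limma, adjusted p = 0.026).

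Control tumour lay lower still than KO tumour in several of these genes. Control tumour minus sham was -2.10 for *Hpgd*, -2.80 for *Klk1*, -1.55 for *Prg3* and -1.80 for *Apoe* on the log2 scale. KO tumour minus control tumour was 0.83 (limma, adjusted p = 0.011), 1.39 (0.0039), 0.33 (0.19) and 0.97 (2.9e-05), so *Hpgd*, *Klk1* and *Apoe* were higher in KO tumour than in control tumour while both were below sham. Without 1 library the calls of KO tumour against sham were kept in 3 of 12 fits for *Hpgd*, 2 for *Klk1*, 2 for *Prg3* and 5 for *Apoe*, and in all 12 for *Cxcl9* and *Clec9a*. The highest adjusted p of the first 4 genes came without the third KO tumour library at ZT15, from 0.073 for *Apoe* to 0.10 for *Hpgd*.

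Among the rises, too, were genes for which control tumour lay above sham. *Crls1*, the cardiolipin synthase of mitochondria, rose from 1.26, 5.38 and 10.5 to 11.2, 19.5 and 25.9 CPM, a log2 difference of 1.94 (SE 0.42; limma, adjusted p = 0.041), and was at 14.4, 17.95 and 23.6 CPM in control tumour. Without 1 library, the call of *Crls1* was kept in 3 of 12 fits. *Tcf7*, a transcription factor best known from T cells, rose from 60.98, 84.7 and 102 to 144, 167 and 199 CPM, a log2 difference of 1.05 (SE 0.17; limma, adjusted p = 0.017), with 0.99 for control tumour minus sham and 0.06 for KO tumour minus control tumour. The heat shock genes *Hspa1a* and *Hspa1b*, whose coding sequences are nearly the same, rose by 1.43 (SE 0.25) and 1.34 (SE 0.27) with overlapping ranges, and hold fractions of a read in all 12 and in 91.7% of the libraries. Their sum was 195.7 ± 106 CPM in KO tumour and 73.0 ± 39.3 CPM in sham, and it was higher at ZT15 than at ZT21 in both arms. *Hspa1a* differed by 1.06 and *Hspa1b* by 1.31 between control tumour and sham.

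The remaining large rises differed in where control tumour lay. *Dgkh*, a diacylglycerol kinase, rose from 2.59, 4.78 and 6.68 to 10.996, 14.8 and 24.9 CPM (log2 difference 1.59, SE 0.23; limma, adjusted p = 0.013), with 0.88 for control tumour minus sham and 0.71 for KO tumour minus control tumour. *Fgfr3*, a receptor of fibroblast growth factors, rose by 1.81 (SE 0.34), *Ccdc157* by 1.96 (SE 0.40), *Zfp532* by 1.87 (SE 0.40) and *Fam135a* by 1.71 (SE 0.32) on the log2 scale. Control tumour minus sham was 1.40 for *Fgfr3* (limma, adjusted p = 0.0022), 0.44 for *Ccdc157* (0.57), 0.75 for *Zfp532* (0.18) and 0.58 for *Fam135a* (0.11). KO tumour minus control tumour was 0.40 (0.31), 1.52 (0.015), 1.12 (0.025) and 1.12 (0.0021) in the same order. These 4 genes were low, between 0.286 and 5.38 CPM in sham and between 2.74 and 17.0 CPM in KO tumour, and their calls were kept in 3 to 5 of the 12 fits without 1 library. The call of *Dgkh* was kept in all 12.

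Of the 251 calls, 31 were kept in each of the 12 fits without 1 library, and 21 were kept in all 24 alternatives tried, 14 higher and 7 lower, 6 of them on chromosome 7. A further 9, among them *Art2b*, *Hddc3*, *Trim34b*, *Clec9a* and *Dgkh*, were called in the 23 alternatives that tested them and fell below the filter of the other. The genes of these 21 not yet named, singled out after their values were seen, include *Clk4*, *Rsrp1*, *Mbd4*, *Npr2*, *Vav2* and *Vim*. *Vim*, the intermediate filament protein vimentin, was at 1925, 1993 and 2179.6 CPM in sham and 1176, 1310.0 and 1426 CPM in KO tumour, without overlap, a log2 difference of -0.63 (SE 0.09), which was -0.07 for control tumour minus sham and -0.56 for KO tumour minus control tumour. *Npr2*, a receptor of natriuretic peptides, rose by 1.55 (SE 0.23), and *Vav2*, a guanine nucleotide exchange factor, by 1.39 (SE 0.21), and both were also higher in control tumour than in sham, by 1.00 and 0.94. *Mbd4*, a DNA glycosylase, rose by 0.89 (SE 0.14), with 0.15 for control tumour minus sham.

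**Figure D3:**
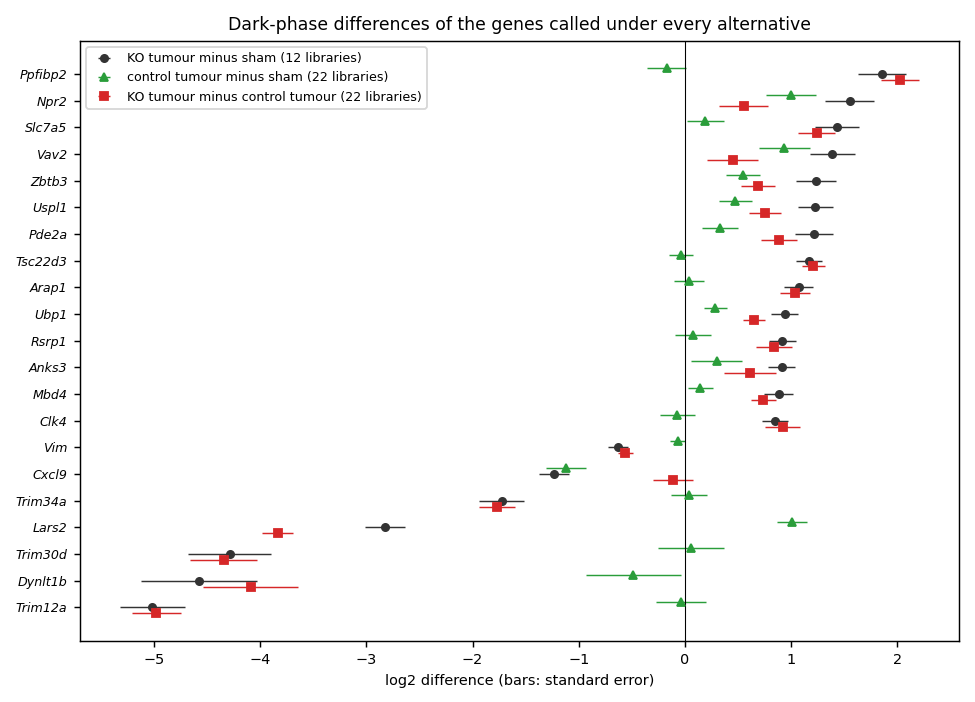
Log2 differences, with bars of 1 standard error, of the 21 genes called under every alternative: KO tumour minus sham in 12 libraries (black), and control tumour minus sham (green) and KO tumour minus control tumour (red) in 22 dark-phase libraries. The black and red points lie together for *Trim12a* and *Tsc22d3*, while the black and green points lie together for *Cxcl9*, and the green point of *Lars2* lies at 1.01 on the other side of 0.

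No clock gene passed the test. Of 18 clock genes tested, 0 were called in either direction (limma), and 2 had an unadjusted p under 0.05, where 26.3% of all genes tested did. Their median log2 difference was 0.02, against 0.11 for all genes, and it was -0.10 with median-of-ratios scaling. *Per1* differed by -0.07 (SE 0.22), *Per2* by 0.05 (SE 0.41), *Nr1d1* by 0.04 (SE 0.30), *Dbp* by -0.29 (SE 0.12) and *Cry2* by 0.64 (SE 0.24). Beside control tumour, *Nr1d1*, which encodes REV-ERBα, was at 0.241, 1.48 and 6.86 CPM there, 1.21, 5.51 and 10.4 CPM in sham and 2.21, 4.49 and 9.28 CPM in KO tumour. *Cry1* was -0.92 in control tumour minus sham (limma, adjusted p = 0.0026) and 0.96 in KO tumour minus control tumour (0.0013), and differed by 0.05 between KO tumour and sham.

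*Cd80*, the co-stimulatory ligand of CD28, was at 6.57, 9.09 and 11.6 CPM in sham and 7.07, 10.6 and 16.003 CPM in KO tumour, a log2 difference of 0.23 (SE 0.19; limma, adjusted p = 0.47). Of 16 co-stimulation genes tested, 1 was called higher, against 1.69% of all genes, and their median log2 difference was 0.28. The called gene was *Icosl*, the ligand of ICOS on T cells, which rose from 332.8, 394 and 439.5 to 491, 627 and 761 CPM (log2 difference 0.64, SE 0.14; limma, adjusted p = 0.040). The call of *Icosl* was kept in 2 of 12 fits without 1 library, and lost with median-of-ratios scaling (limma, adjusted p = 0.067) and with the length and GC trend removed (0.093). *Cd86* and *Cd83* differed by 0.40 and 0.46 without passing the test. Of 14 genes of MHC class II presentation, 0 were called (limma), 3 had an unadjusted p under 0.05 and the median was -0.25. Of 20 genes of MHC class I presentation, 0 were called, 9 had an unadjusted p under 0.05 and the median was -0.10. The share over all genes tested was 26.3%. With median-of-ratios scaling, 1 gene of the first list and 2 of the second were called lower.

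Genes of protein synthesis and respiration lay lower in KO tumour as lists, with few calls. Of 82 genes of the cytosolic ribosome tested, 80 had a difference below 0, with a median of -0.64, and 2 were called lower, *Rpl10* (-0.75, SE 0.17; limma, adjusted p = 0.049) and *Rps2* (-0.74, SE 0.17; 0.049). Without adjustment 75 of the 82 had a p under 0.05 (limma). The summed level of this list was 13304 to 32375 CPM in KO tumour and 28127 to 42832 CPM in sham. Of 77 genes of oxidative phosphorylation, 73 were below 0 with a median of -0.39, and 2 were called lower, *Atp5g3* (-0.66, SE 0.12) and *Atp5g2* (-0.59, SE 0.14), both encoding the rotor subunit of ATP synthase. Of these 77, 46 had an unadjusted p under 0.05. Of 76 genes of the mitochondrial ribosome, 67 were below 0 with a median of -0.31, and 0 were called (limma), with 28 at an unadjusted p under 0.05. Of 38 proteasome genes, 29 were below 0 with a median of -0.15, and 0 were called, with 12 at an unadjusted p under 0.05. Over all genes tested, 0.410% were called lower, 26.3% had such a p, 7243 of 11963 were above 0 and 4717 below. The calls of *Rpl10*, *Rps2* and *Atp5g2* were kept in 1 of 12 fits without 1 library, and that of *Atp5g3* in 6.

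These genes have short transcripts, and the difference between the arms followed transcript length. Split into 5 equal bins by length, the genes had a median log2 difference of -0.18 in the shortest bin, 0.09, 0.20 and 0.26 in the next 3 and 0.17 in the longest. The shortest bin held 10 calls higher and 20 lower, and the longest 38 higher and 6 lower. Taken per library as the median deviation of the longest bin minus that of the shortest, this length index was 0.21 ± 0.24 in KO tumour and -0.15 ± 0.16 in sham (n = 6 each), with 0.59 in the first KO tumour library at ZT21. In the light phase the index was -0.03 ± 0.12 in KO tumour and -0.00 ± 0.12 in sham. It was not taken for the control tumour libraries.

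With a smooth trend on length and GC content removed from each library, an alternative added after the data were seen, the median of the cytosolic ribosome list was -0.40, that of oxidative phosphorylation -0.13, that of the mitochondrial ribosome -0.18 and that of the proteasome -0.02. None of the 4 calls of the ribosome and oxidative phosphorylation lists was kept (limma, adjusted p from 0.058 for *Rpl10* to 0.11 for *Atp5g3*), and 90 genes were called in all, 40 higher and 50 lower. The part of library preparation and RNA quality in the length index was not tested.

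**Figure D4:**
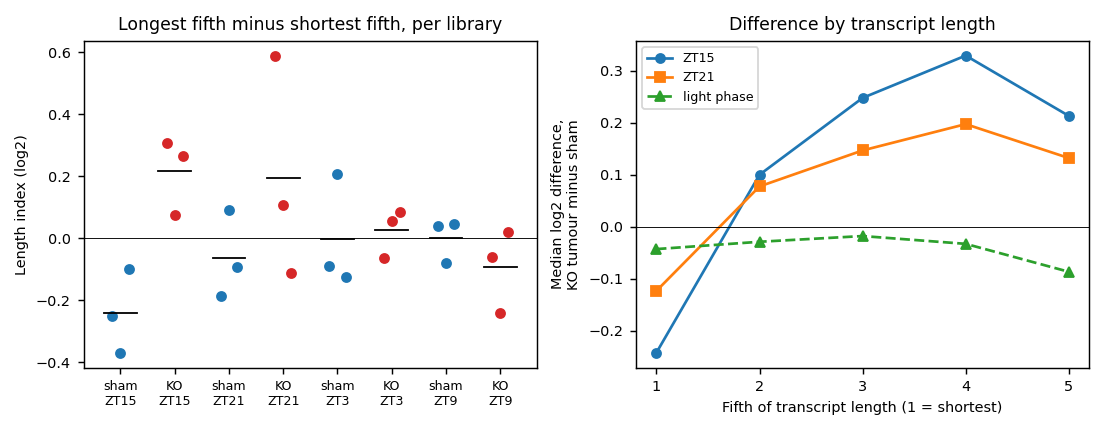
Left, the length index of each KO tumour (red) and sham (blue) library, on the log2 scale, with lines at group means. Right, the median log2 difference of KO tumour minus sham in each of 5 bins of transcript length at ZT15, ZT21 and in the light phase. In the dark phase the shortest bin lies below 0 and the other 4 above, while the light-phase line stays between -0.02 and -0.09.

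Genes of cholesterol synthesis lay higher. Of 24 tested, 19 were above 0 with a median of 0.53, which was 0.34 after removal of the length and GC trend, and 3 were called higher. Of all genes, 60.5% were above 0 and 1.69% called higher. *Sqle*, the squalene epoxidase, rose from 42.6, 46.5 and 80.1 to 74.6, 99.1 and 118 CPM, a log2 difference of 0.86 (SE 0.19; limma, adjusted p = 0.046). *Lss*, the lanosterol synthase, rose from 16.5, 19.3 and 23.3 to 23.98, 39.7 and 61.8 CPM (0.96, SE 0.21; 0.042), and *Acat2*, which joins acetyl-CoA units at the start of the pathway, from 13.4, 17.4 and 21.7 to 27.9, 29.0 and 40.5 CPM (0.84, SE 0.16; 0.031). *Lss* and *Acat2* did not overlap between the arms, as 2.99% of all genes did not in that direction, and *Acat2* holds fractions of a read in all 12 libraries. Their calls were kept in 1 (*Lss*), 4 (*Acat2*) and 2 (*Sqle*) of 12 fits without 1 library. With median-of-ratios scaling 0 genes of the list were called (limma, adjusted p from 0.052 for *Acat2* to 0.064 for *Sqle* among these 3), and with the length and GC trend removed 1 was. Of 20 genes of lipid efflux and LXR targets, 12 were above 0 with a median of 0.16, and 2 were called lower, *Apoe* and *Npc2* (-0.57, SE 0.13), which moves cholesterol out of lysosomes and whose call was kept in 1 of 12 fits without 1 library. *Fads2*, a fatty acid desaturase, had the highest difference of that list, 0.91, and *Abcg1* differed by -0.46, neither passing the test.

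Of 31 splicing factor genes, 3 were called higher, 16 had an unadjusted p under 0.05 (limma) and the median was 0.20. With median-of-ratios scaling the median was 0.09, with the length and GC trend removed it was 0.05, and 1 gene, *Clk4*, was called in each. *Clk4* and *Clk1*, kinases that phosphorylate SR proteins, rose by 0.85 (SE 0.12) and 0.80 (SE 0.18), and *Srsf7*, an SR protein, by 0.58 (SE 0.13). *Clk4* was at 37.6, 46.8 and 61.6 CPM in sham and 67.7, 82.9 and 111 CPM in KO tumour, and its call was kept in all 12 fits without 1 library, those of *Clk1* and *Srsf7* in 1 and 2. Of 27 heat shock and chaperone genes, 3 were called higher, *Hspa1a*, *Hspa1b* and *Dnajb1* (0.54, SE 0.12), and the median was 0.23. With median-of-ratios scaling 1 was called and the median was 0.11, with the length and GC trend removed 0 were called and it was 0.12, and without 1 library the calls were kept in 9, 1 and 2 of 12 fits. Of 24 NF-kB genes, 1 was called higher, *Tnfaip3* (0.63, SE 0.14), which encodes the inhibitor A20, and of 26 lysosome genes 1, the cation channel gene *Mcoln1* (0.73, SE 0.16), where 2.10% of all genes tested were called. Both calls were kept in 1 of 12 fits without 1 library and lost with median-of-ratios scaling (limma, adjusted p = 0.075 and 0.069). Of 24 genes of the unfolded protein and integrated stress response, 22 of glycolysis, 22 of mTOR and AKT, 36 of the cell cycle and 29 immediate early genes, 0 were called (limma), with medians of 0.17, 0.18, 0.22, 0.08 and 0.07. In the same order, 12, 2, 9, 6 and 8 of these genes had an unadjusted p under 0.05, against 26.3% of all genes.

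Of 53 interferon-stimulated genes tested, 2 were called lower, *Cxcl9* and the immunity-related GTPase gene *Iigp1* (-0.84, SE 0.18), and 0 higher, where 0.410% of all genes were called lower and 1.69% higher. The median was 0.04, or -0.08 with median-of-ratios scaling. *Trim30a*, a member of this list, was at 38.5 ± 6.92 CPM in KO tumour and 60.1 ± 9.92 CPM in sham, a difference of -0.64 that missed the threshold (limma, adjusted p = 0.051) and passed it with median-of-ratios scaling (0.041) and with the length and GC trend removed (0.035). Without 1 library the call of *Iigp1* was kept in 3 of 12 fits. The median at ZT15 was 0.38 and at ZT21 -0.18. Of 31 chemokines and cytokines, 22 were below 0 and *Cxcl9* alone was called. *Ccl5*, a chemokine of T cells, NK cells and mature DCs, was at 6774, 8927 and 11288 CPM in sham and 4115, 6204 and 7805 CPM in KO tumour, and *Ccl4* differed by -1.12 and *Ccl3* by -0.75, none of the 3 passing the test. Of 28 pattern recognition genes, *Clec9a* alone was called.

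**Figure D5:**
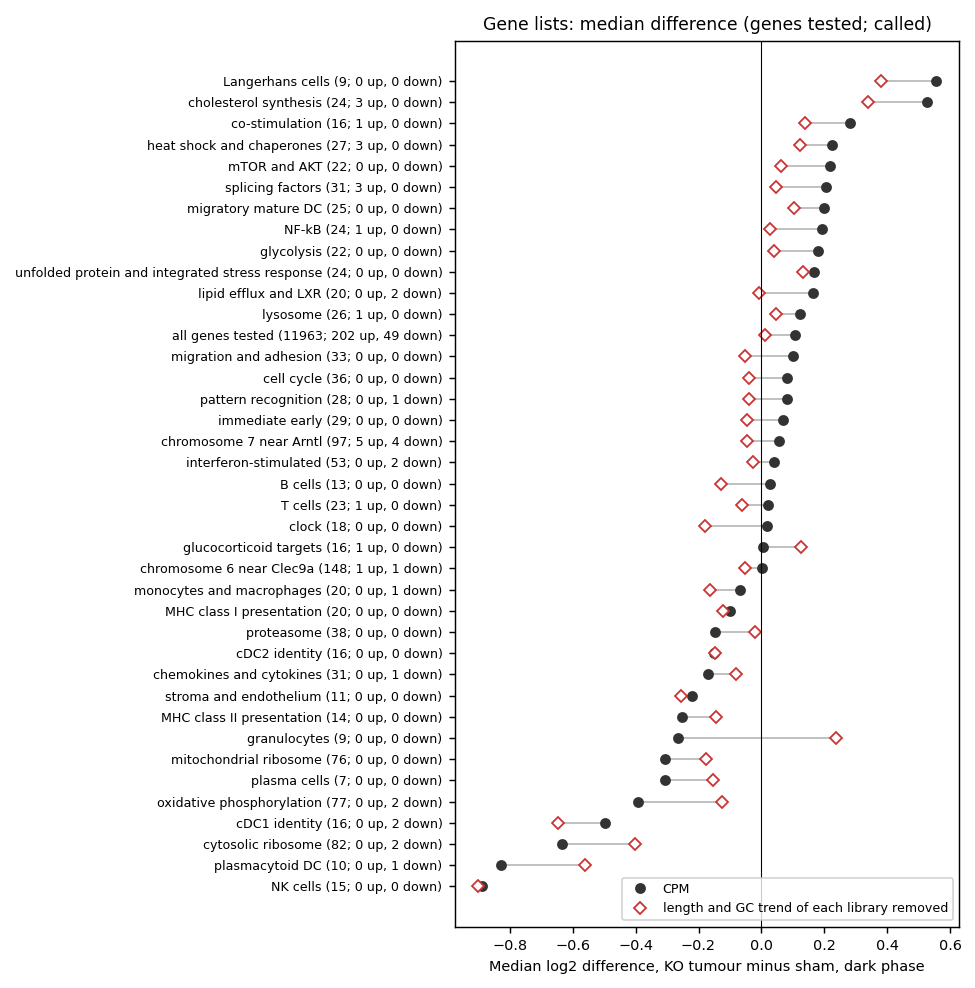
Median log2 difference of KO tumour minus sham over the tested genes of each list, from CPM (black) and after removal of each library's length and GC trend (red), with the number of genes tested and called in brackets. The ribosome and respiration lists move toward 0 after the removal, and the cDC1 and NK lists do not. With median-of-ratios scaling, the medians of the clock, T cell, B cell, interferon-stimulated, pattern recognition, immediate early, glucocorticoid, cell cycle and migration lists and of the genes near *Arntl* and near *Clec9a* change sign.

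Some marker lists of other cells lay lower in KO tumour. All 15 NK cell genes tested were below 0, with a median of -0.89, 0 called (limma) and 6 at an unadjusted p under 0.05 (26.3% of all genes), and none was at 0 in every library. Their summed level, which includes *Ccl5*, was 4219 to 8094 CPM in KO tumour and 7037 to 11563 CPM in sham. The median sums were 6346 and 9219 CPM, most of it *Ccl5*, whose medians were 6204 and 8927 CPM. *Ncr1*, which defines NK cells, was at 7.78, 16.5 and 39.5 CPM in sham, 2.68, 4.998 and 11.3 CPM in KO tumour and 0, 0.824 and 3.61 CPM in control tumour. *Gzmb* was at 12.5, 15.8 and 42.04, 1.03, 5.96 and 13.5 and 0.282, 1.16 and 4.25 CPM in the same order. All 10 plasmacytoid DC genes were below 0, with a median of -0.83, of which *Klk1* was called, and their summed level was 196.5 to 395.5 CPM against 312 to 465.8 CPM. *Siglech*, a defining gene of these cells, was at 32.0, 40.6 and 49.8 CPM in sham, 15.3, 21.2 and 42.2 CPM in KO tumour and 3.26, 6.49 and 11.4 CPM in control tumour. Of 20 monocyte and macrophage genes 1 was called, *Apoe*, with summed levels of 1968 to 4318 and 2608 to 4418 CPM. Of 23 T cell genes 1 was called, *Tcf7*, and the sums of 1147 to 1868 and 978 to 1980 CPM overlapped. Over all genes 0.410% were called lower and 1.69% higher. The part of these cells in the falls of *Klk1*, *Apoe*, *Prg3* and *Hpgd* was not tested.

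Within the conventional DC lists, 15 of the 16 cDC1 genes tested were below 0, with a median of -0.50, or -0.65 after removal of the length and GC trend, and *Clec9a* and *Cxcl9* were called lower, where 4717 of all 11963 genes were below 0 and 0.410% were called lower. The summed level of the list was 1015 to 1272 CPM in KO tumour and 1294 to 1784 CPM in sham, without overlap. The median sums were 1133 and 1453 CPM. *Irf8* was the largest member, with medians of 539 and 770.1 CPM and ranges that overlapped. *Xcr1*, the chemokine receptor of cDC1, was at 16.2, 22.8 and 48.4 CPM in sham and 5.12, 13.2 and 13.9 CPM in KO tumour (log2 difference -1.14, SE 0.27; limma, adjusted p = 0.054), and *Irf8*, the transcription factor that cDC1 need, at 626, 770.1 and 1175 and 453, 539 and 686 CPM (-0.49, SE 0.17; 0.10). *Batf3* and *Cadm1* differed by -0.02 and 0.05. *Xcr1* was at 1.69, 11.3 and 24.5 CPM in control tumour, with -1.30 for control tumour minus sham and 0.16 for KO tumour minus control tumour. *Clec9a* differed in both, by -0.68 (limma, adjusted p = 0.082) and -1.28 (0.0013), of which the second passed the threshold. Over the whole cDC1 list the medians of these 2 differences were -0.84 and 0.26, so the list did not lie lower in KO tumour than in control tumour.

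Of 16 cDC2 genes, 0 were called (limma), 3 had an unadjusted p under 0.05 and the median was -0.15, and *Cd209d* differed by -1.81 (SE 0.42; limma, adjusted p = 0.051). Of 9 Langerhans cell genes, 7 were above 0 with a median of 0.56, and 0 were called with 4 at an unadjusted p under 0.05. Their sums of 270.3 to 334 CPM in KO tumour and 193 to 257 CPM in sham did not overlap. *Cd207* (langerin) and *Epcam* differed by 0.75 and 0.51. Of 25 genes of mature migratory DCs, 17 were above 0 with a median of 0.20, and 0 were called with 9 at an unadjusted p under 0.05, where 60.5% of all genes were above 0 and 26.3% had such a p. *Fscn1*, which bundles actin in these cells, was at 2767, 3936 and 5774 CPM in sham and 4586, 5698 and 6459.6 CPM in KO tumour (0.53, SE 0.16; limma, adjusted p = 0.078). For the lists of B cells, plasma cells, granulocytes and stroma 0 genes were called (limma), with medians of 0.03, -0.31, -0.26 and -0.22 and 0, 2, 5 and 0 of their 13, 7, 9 and 11 genes at an unadjusted p under 0.05, against 26.3% of all genes. Summed levels of the B cell list were 182.7 to 393 CPM in KO tumour and 253 to 309 CPM in sham, and those of the granulocyte list 14.2 to 87.2 and 34.5 to 251 CPM. *Cpa3*, a protease of mast cells, was at 8.997, 24.5 and 97.5 CPM in sham and 0.884, 5.80 and 34.7 CPM in KO tumour, without passing the test.

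Each timepoint alone called fewer genes, 29 (0.242%) at ZT15, 23 higher and 6 lower, and 12 (0.10%) at ZT21, 7 higher and 5 lower, with 3 libraries per arm. No gene (0%) differed between ZT21 and ZT15 in the size of its KO tumour minus sham difference after adjustment (limma), while 762 passed 0.05 without it. In simulated data with independent noise for each gene and library, the same test recovered 3% of differences of 1 and 50% of differences of 2 on the log2 scale. Deviations that a library shares over many genes, such as those of the length index, were not simulated, so recovery in the real libraries may differ. *Trim12a* differed by -5.21 at ZT15 and -4.82 at ZT21, *Lars2* by -2.76 and -2.89, *Cxcl9* by -1.34 and -1.12, and *Tsc22d3* by 1.25 and 1.09. The smallest p values of the interaction were those of *Clec1a*, *Prr15* and *Hrh4*, which were low (means of 0.677 ± 0.963, 0.612 ± 0.372 and 0.411 ± 0.397 CPM in KO tumour). *Clec1a*, a C-type lectin receptor, differed by 0.93 at ZT15 and -2.27 at ZT21 (limma, unadjusted p = 1.5e-05, adjusted p = 0.11).

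The light phase gave the same comparison in other mice, 6 KO tumour and 6 sham libraries of ZT3 and ZT9. There 203 genes (1.70%) were called, 31 higher and 172 lower. The 21 genes called in both phases, 8.37% of the dark calls and 10.3% of the light calls, all had the same direction, and 12 of them were on chromosome 7. Of the 202 genes higher in the dark, 166 (82.2%) were above 0 in the light, where 42.9% of all genes tested were, but their median log2 difference was 0.22 there against 0.88 in the dark. Of the 49 lower in the dark, 46 (93.9%) were below 0 in the light, with medians of -0.57 and -0.85. *Trim12a*, *Trim30d*, *Trim34b* and *Art2b* differed by -5.26, -4.87, 4.42 and 3.43 in the light, *Lars2* by -1.92, *Tsc22d3* by 0.54 and *Slc7a5* by 1.06. *Dynlt1b* was at 0.940, 18.1 and 36.2 CPM in KO tumour in the light and 64.01, 79.6 and 94.3 CPM in sham, and missed the threshold (limma, adjusted p = 0.099).

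The difference between the phases itself was tested, and 0 genes (0%) passed after adjustment and 2131 passed 0.05 without it (limma, 24 libraries), so in this fit no gene was shown to differ between the phases. The count was 40 with all 44 libraries, 137 with array weights, 38 with a mean-variance trend and 44 among genes of at least 10 CPM on average. The median of this interaction over all genes was 0.17. Among the smallest p values were those of *Slc29a1*, an equilibrative nucleoside transporter, and *Tet2*, which oxidises 5-methylcytosine, each with an adjusted p of 0.053. *Tet2* rose from 13.9, 22.2 and 26.8 to 32.4, 38.4 and 46.6 CPM in the dark, a log2 difference of 0.84 (SE 0.13; limma, adjusted p = 0.014), and differed by -0.12 in the light. *Slc29a1* differed by 0.28 in the dark and -0.87 in the light. The median of the cytosolic ribosome list was -0.64 in the dark and -0.02 in the light.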

How the data were processed

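RNA was sequenced from sorted CD45+CD11c+MHCII high cells of single mice after SMART-Seq v4 amplification of 1 ng of RNA, as 50-base single reads. Per the labels and the study's methods, the authors aligned reads with STAR 2.7.0 to mm10 and counted genes with HTSeq 0.9.1. The deposited values are CPM per gene, in 1 table of 44 libraries. The CPM of a library gave whole reads, within 0.01 of a read, for 87.9 to 89.3% of its values over the dark and light libraries used here, so no count test was run, and the study's own count model could not be repeated.

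Of 14699 genes, 11963 reached 1 CPM in 5 or more libraries of the series and were tested. Values were taken as log2(CPM + 0.5) and tested with limma 3.58.1 (R 4.3.3), with the timepoint as a covariate and p-values adjusted by Benjamini-Hochberg across the table. Timepoints, their interaction and the phase interaction came from group-means fits, and control tumour was set beside both arms in a fit of 22 libraries. Groups came from the labels. The meaning of the replicate numbers is not stated, and they were not a term of the main fit. The study names 2 independent experiments, which the labels used here do not give, so they cannot be told apart from the groups. Libraries held 29406729 to 49590055 reads on genes, which come from amplified cDNA and are not independent molecules, so the precision of a value was taken from the spread between mice.

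Named genes were *Arntl*, *Clec9a*, *Cd80* and the clock genes, the 10 largest changes with a mean of at least 5 CPM in the higher group and the 5 smallest p in each direction among calls with the same direction at both timepoints, up to 4 genes of each of 40 lists by p, and the 3 smallest p of each interaction. One gene that this rule names is not reported here. Members, lists and tests were chosen with earlier results of these data known. The fits were tested on simulated data with independent noise for each gene and library, where the dark-phase fit recovered 56% of log2 differences of 1 and 88% of differences of 2. Another pseudocount, filter, scaling or model, a replicate block and leaving out each library were tried. Promoters are RefSeq windows, matched by symbol, and coordinates are those of RefSeq on GRCm38.p6. Python 3.11.15, numpy 2.4.6, pandas 2.3.3 and matplotlib 3.10.9 were used.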

Additional observations from a re-analysis of the deposited data

Results flagged for a closer look

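Of 88 gene and group pairs looked at, for 22 genes in each arm of 6 libraries and in control tumour at each timepoint, 9 held a library set apart from the rest by Dixon's criterion, where chance sets apart about 1 in 20. The arms join both timepoints. In KO tumour, *Clec9a* reached 1.68 CPM in replicate 2 at ZT15 and *Dynlt1b* 34.0 CPM in replicate 3 at ZT15. *Ppfibp2* reached 160.4 CPM and *Cxcl9* 17.8 CPM in replicate 1 at ZT21, the library that stood apart over all genes. In sham, *Xcr1* reached 48.4 CPM and *Gzmb* 42.0 CPM in the same library, replicate 2 at ZT15, and *Trim34b* 0.925 CPM in replicate 2 at ZT21. In control tumour at ZT21, *Crls1* reached 23.6 CPM and *Siglech* 11.4 CPM in their highest library. Each of these was the highest library of its group.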

How the results depend on the processing

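The number of genes called in the dark phase stayed within 1.5 times of 251 with median-of-ratios scaling (176), ordinary least squares (305) and pseudocounts of 0.1 (187) and 1 (332). It also stayed within 1.5 times without the second sham library at ZT21 (195), and moved further with the other settings. None of the 44 named genes called in the dark phase changed sign in any alternative. Of the 130 named genes not called, 15 changed sign in at least 1 alternative, *Arntl* among them (0.06, or -0.05 with median-of-ratios scaling), in no case past the threshold. Over the alternatives, 3383 gene and setting pairs kept their side of the threshold, 405 passed it anew and 340 no longer passed it. The 251 calls of the dark phase became 1722 in the fit of 22 libraries, 2330 in that of all 44, 892 with array weights, 1153 with a mean-variance trend, 1106 with a mean of at least 10 CPM, 471 without a filter and 90 with the length and GC trend removed, which was added after the data were seen. The 94 calls of at least 2-fold became 278, 317, 191 and 204 in the first 4 of these settings, 62 with median-of-ratios scaling, 60 without moderation of the variance and 38 with the trend removed. The 29 calls at ZT15 became 1189 (44 libraries), 127 (array weights), 227 (trend), 185 (mean of 10 CPM), 15 (median of ratios), 71 (no filter), 19 (pseudocount 0.1) and 11 (length and GC). The 12 at ZT21 became 268, 340, 28 and 24 in the first 4 of these and 23 without a filter. The 0 calls of the timepoint interaction became 9 with 44 libraries, 2 with array weights and 1 with a pseudocount of 0.1. The 0 of the phase interaction became 40, 137, 38 and 44 in the first 4, 4 without a filter, 5 without moderation and 4 with a pseudocount of 0.1. The cause of these moves was not tested.

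Leaving out 1 library gave 33 to 1006 calls in place of 251, 25 to 240 at least 2-fold, 3 to 68 at ZT15, 7 to 15 at ZT21, 0 to 1 for the timepoint interaction and 0 to 8 for the phase interaction. For the KO tumour libraries of ZT15 the calls were 82, 147 and 33 without replicate 1, 2 and 3, for those of ZT21 113, 153 and 1006. For the sham libraries of ZT15 they were 63, 63 and 123, and for those of ZT21 74, 195 and 121. Calls of at least 2-fold in the same order were 55, 74 and 25, then 51, 76 and 240, then 45, 43 and 56, then 44, 81 and 74. At ZT15 they were 5, 7 and 7, then 68, 9 and 32, then 8, 3 and 51, then 19, 18 and 11. At ZT21 they were 10, 9 and 9, then 8, 12 and 12, then 8, 7 and 8, then 7, 15 and 7.

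With the replicate number as a block, 84 genes were called in the dark phase, 45 at least 2-fold, 5 at ZT15, 9 at ZT21 and 0 in either interaction. Over 18 pairs of same-numbered libraries the correlation of deviations was -0.12 to 0.06, so the numbers gave no sign of pairing. Whether they mark the independent experiments was not tested. Small changes of low genes are limited by the spread of 6 mice per arm.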

Other observations

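*Actb*, the cytoskeletal actin often used as a reference gene, is given here because its values drew attention. In the dark phase it was at 8377 ± 566 CPM in KO tumour (n = 6), 12738 ± 1156 CPM in sham (n = 6) and 23616 ± 3430 CPM in control tumour (n = 10), and the ranges of the 3 groups did not overlap. The log2 difference was -0.60 for KO tumour minus sham, 0.88 for control tumour minus sham and -1.48 for KO tumour minus control tumour (limma, adjusted p = 0.017, 2.9e-07 and 5.1e-11), so *Actb*, like *Lars2*, lay below sham in KO tumour and above it in control tumour.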
